A study of Trametes elegans with 15 samples.

Results

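Of the 949 genes in the authors' deposited table of the white-rot fungus *Trametes elegans*, 37 were high only on maltose. They were chosen by their measured levels. The 5 normalised log2 read counts of each gene, 1 per medium, were sorted, and a gene was kept where the largest gap between neighbouring values was at least 1 and maltose alone lay above it. A gap of 1 on this log2 scale is a 2-fold difference in normalised reads. Because the rule used all 5 values, the high maltose levels below describe the members and are not a test. The gene numbers are those of a fungal genome portal, and neither the table nor the labels pair them with names or functions, so no role can be given to any single gene.

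Mycelium of strain BRFM 1663 was grown in shaken flasks at 30 °C and sampled after 3 days. All 15 samples, 3 per medium, share a base of mineral salts, diammonium tartrate and yeast extract. The control medium held 20 g/l of maltose and no solid. The other 4 media held 15 g/l of microcrystalline cellulose (Avicel), milled wheat straw, pine or aspen. Cellulose, straw and pine cultures also received 2.5 g/l of maltose, while the label for aspen gives an illegible amount. A low level on a solid therefore goes with both the solid and less of the sugar, at least on the first 3 solids, and their parts cannot be told apart. All samples are of 1 strain. Nothing in the labels tells whether replicates came from separate flasks, and the p-values below then reflect only how far these libraries differ, possibly for technical reasons.

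Maltose is a soluble disaccharide of glucose that fungi split with alpha-glucosidases and take up quickly. White-rot fungi live on wood by secreting enzymes against cellulose, hemicellulose and lignin, and in many fungi an easily used sugar holds the genes for such enzymes down while genes for growth on that sugar are active.

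Replicate values come from whole reads per library, which could be worked back from the digits of the deposited means: 3 libraries each for maltose, cellulose, pine and aspen and 2 for straw, where the labels list 3 samples. Libraries are named a to c within a medium without a link to the labels' replicate numbers. The 772 genes recovered in all 14 libraries held 387755 to 1080488 reads per library, a part of the library and not its full depth. Of the 37 members, 28 had library values on maltose, 31 on all 4 solids and 27 in every library. The others lie too high, or gave no single set of reads, and are given by the deposited value alone. Levels are log2(normalised read count + 1), are not adjusted for gene length, and carry the SD over libraries.

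The members covered a wide span of levels. On maltose they ranged from 4.49 to 14.87 with a median of 10.94, where the median of all listed genes was 8.10. Of the 37 members, 7 lay at 13 or above on maltose, 14 between 10 and 13, 9 between 7 and 10 and 7 below 7. These make up 8.64%, 7.53%, 2.70% and 2.01% of the listed genes in the same bands. The gaps were largest in the band from 10 to 13, with a median of 2.60, against 1.55 above it, 1.57 in the band from 7 to 10 and 1.13 below 7. At the lowest levels the added 1 compresses differences, so small gaps there understate the fold.

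The gap between maltose and the nearest solid ranged from 1.08 to 6.26, with a median of 1.65, a 3.13-fold difference. It was at least 2 in 14 members and at least 3 in 7, and under 1.5 in 15. Over the whole table, 47 genes lay at least 1 above every solid on maltose, and 10 of them were not kept because a larger gap lay among the solids. In the plot of the maltose level against the nearest solid, the members form the lower edge of the cloud of genes rather than a separate group. Just inside the threshold, gene 807321 was at 14.74 on maltose and 13.66 on straw, its nearest solid. Just outside it, gene 875164 was at 11.93 on maltose and 10.94 on pine, a gap of 0.99.

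**Figure D1:**
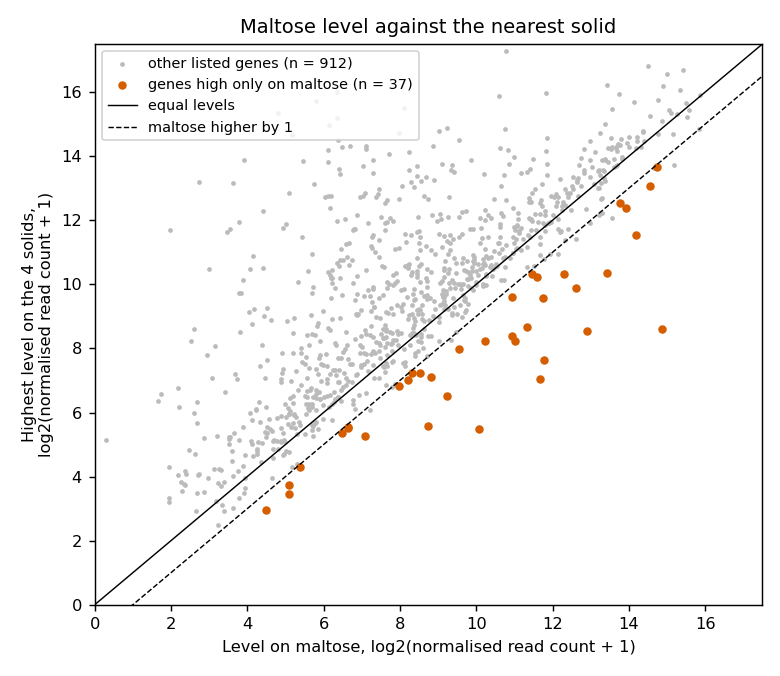
Each point is 1 of the 949 listed genes, with its deposited level on maltose (x axis) and its highest deposited level on the 4 solids (y axis), both as log2(normalised read count + 1). The 37 members lie below the dashed line, where maltose is higher by 1, and the point farthest below it, with a gap of 6.26, is gene 165303.

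Gene 165303 had both the highest maltose level of the members and the largest gap. Its deposited value was 14.87 on maltose and 8.60 ± 0.09 (SD, n = 3) on cellulose, its nearest solid, a 76.9-fold difference. It was at 7.82 ± 0.20 (SD, n = 2) on straw, 7.67 ± 0.06 (SD, n = 3) on pine and 8.45 ± 0.13 (SD, n = 3) on aspen. All 11 solid libraries lay between 7.60 and 8.67, and the deposited values of the solids spanned 0.93, far less than the distance to maltose.

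Gene 806311 had the next largest gap, 4.64, a 24.9-fold difference from pine. It was at 11.68 on maltose (deposited value), 5.61 ± 0.15 (SD, n = 3) on cellulose and 6.54 ± 0.25 (SD, n = 2) on straw. On pine it was at 7.04 ± 0.23 and on aspen at 6.70 ± 0.07 (SD, n = 3 each). Its 3 cellulose libraries, with 50, 41 and 46 reads, were lower than every library of the other solids.

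Gene 811231, picked after its values were seen because its maltose libraries were recovered, was at 9.91, 10.08 and 10.22 on maltose. Its 11 solid libraries lay between 3.64 and 5.65, with 11 to 50 reads each against 1097 to 1266 on maltose. The lowest maltose library was 4.26 above the highest solid library, the widest such margin among the 27 members recovered throughout.

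Gene 809348 showed the widest spread over the solids, 4.83. Its maltose libraries were at 11.35, 11.69 and 12.32, and its cellulose libraries at 7.76, 7.99 and 7.21. The other solids were far lower, with 2.32 and 3.66 on straw, 3.88, 4.26 and 4.57 on pine and 2.67, 2.52 and 3.29 on aspen. These are 4 to 19 reads per library, against 136 to 243 on cellulose and 2968 to 5444 on maltose. The gene thus held separate ranges on maltose, on cellulose and, lowest, on the plant materials. Among these, every pine library lay above every straw and aspen library, while straw and aspen overlapped. In the limma tests between solids described below, pine was called higher than aspen by 1.41. The difference of straw from pine, -1.25, was also called. Both rest on few reads, and whether they hold under other settings is not given here.

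At the other end of the levels, gene 820122 held 28, 22 and 22 reads in the maltose libraries. On the solids it held 4 to 7 reads per library apart from 1 read in an aspen library. Its deposited levels were 4.49 on maltose and 1.97 to 2.96 on the solids, with an SD of 0.90 on aspen. Without the added 1, its mean normalised count on maltose was 3.18 times that on pine and 6.33 times that on aspen.

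**Figure D2:**
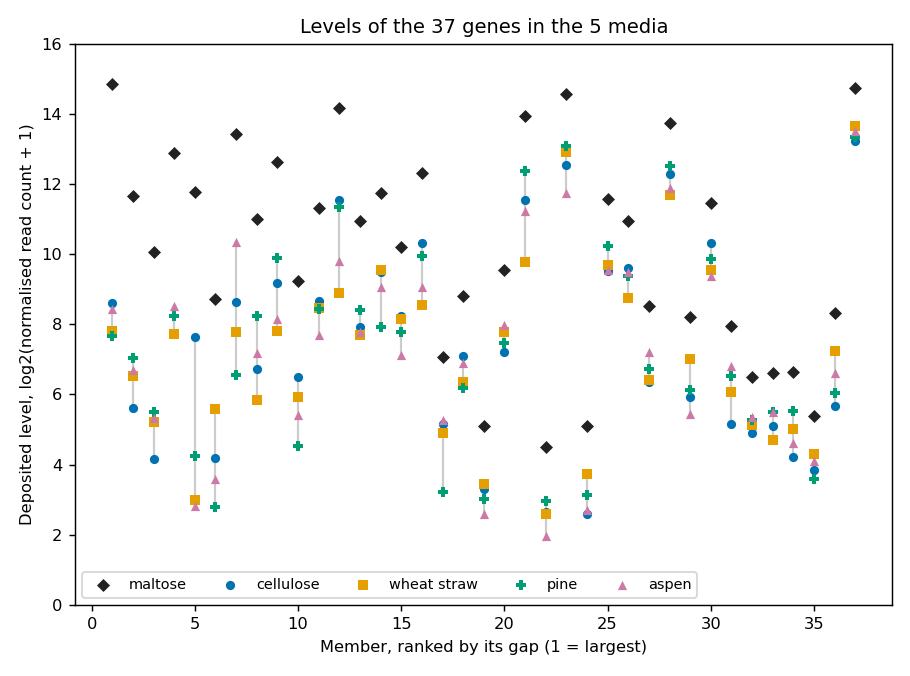
Deposited levels (y axis, log2(normalised read count + 1)) of the 37 members, ranked on the x axis by their gap. Diamonds show maltose, the other symbols the 4 solids, and grey bars span the solids. The bar is longest for gene 809348, at rank 5.

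Library by library, the 27 members recovered throughout did not overlap: in all 27, the lowest maltose library was above the highest of the 11 solid libraries, by 0.55 to 4.26 with a median of 1.24. Of the 772 genes recovered in every library, 11.4% showed this separation. The rule chose members on the same contrast, so nothing is read from the count. In the members the SD between libraries had a median of 0.21 for maltose, 0.22 for cellulose, 0.16 for straw, 0.18 for pine and 0.20 for aspen. Over all recovered genes it was 0.16, 0.17, 0.12, 0.16 and 0.16, in the same order. The largest SD of a member was 0.95 with cellulose, 0.95 with straw, 0.90 with aspen, 0.84 with maltose and 0.83 with pine.

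Maltose library a was more often the lowest replicate than libraries b and c, in the members as in all genes. It was the lowest of the 3 in 13 of the 28 members with maltose libraries and the highest in 3. Over all 846 genes recovered on maltose it was the lowest in 411, or 48.6% of genes against 46.4% of the members. The median deviation from the gene's maltose mean was -0.19 in the members and -0.05 in all genes. When library a was left out, the rule found 44 genes, with all 37 members among them. Only the 28 members with maltose libraries could change in this way. Leaving out the replicate that was most often the lowest also tends to raise the maltose level, so the retention is no test of the members.

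As a group the members took up a much larger share of the listed reads on maltose. Summed over the 37 genes, the normalised counts behind the deposited levels came to 190404 for maltose, 34996 for cellulose, 31407 for straw, 40642 for pine and 29723 for aspen. That was 8.25% of the sum over all 949 listed genes in the maltose medium, against 1.17% with cellulose, 1.02% with straw, 1.58% with pine and 1.24% with aspen. The 7 members at 13 or above held 73.7% of the members' sum on maltose, so the share is mostly theirs. In this sum each count is the geometric mean of its libraries, longer genes weigh more, and genes outside the table are not included. The rule chose the members on these same values and fixed the direction, so the larger share on maltose is a description and no test.

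**Figure D3:**
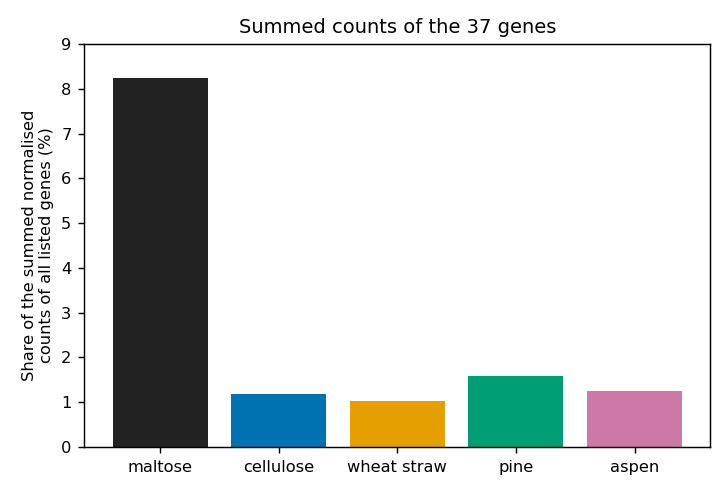
Bars give the summed normalised counts of the 37 members as a percentage of the sum over all 949 listed genes in each medium, from the deposited values with no replicate error. The share is 8.25% on maltose and between 1.02% and 1.58% on the 4 solids.

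The distance from maltose was similar on the 4 solids. The median difference (maltose minus solid) was 2.34 for cellulose, 2.16 for straw, 2.27 for pine and 2.69 for aspen. Over all listed genes it was -0.22, -0.26, -0.08 and -0.27. These comparisons share the maltose libraries. A difference of at least 2 was found in 24 of the 37 members for cellulose, 22 for straw, 22 for pine and 25 for aspen. Over all listed genes 3.58%, 5.16%, 8.54% and 6.11% lay lower by at least 2, in the same order, and again the rule fixed the direction. The largest differences were 6.26 for cellulose, 8.79 for straw, 7.55 for pine and 8.96 for aspen, that for cellulose in gene 165303 and the other 3 in gene 809348.

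No single solid was regularly the lowest or the nearest. Cellulose was the lowest solid in 11 members, straw in 10, pine in 8 and aspen in 8. Pine was the nearest to maltose in 12 members, cellulose in 10, straw in 8 and aspen in 7. Over all 949 listed genes, pine was the lowest solid in 374, cellulose in 259, straw in 166 and aspen in 150. The highest solid was straw in 256, pine in 248, aspen in 227 and cellulose in 218. The range over the 4 solids had a median of 1.13 in the members and 1.36 in all listed genes. It was under 1 in 17 members and smaller than the gap to maltose in 28. The rule itself keeps neighbouring solids closer together than the gap.

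Differences between solids are not the contrast that chose the members, although the rule bounds them, and they were tested with limma over all genes recovered in both media of a pair. A call needed an adjusted p below 0.05 together with a log2 difference of at least 1. Of the 31 members tested in all 6 pairs, 16 were called in none, which is 51.6%, and 15 in at least 1. Of all 787 genes tested in the 6 pairs, 35.2% were called in none. Gene 807321 was recovered only on straw among the solids and was tested in no pair.

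The calls among the members were close to evenly divided between the directions in each pair. On straw against cellulose, 4 of 34 members were higher and 4 lower, with 21.6% and 9.32% of all tested genes higher and lower. On pine against cellulose, 5 of 32 were higher and 6 lower, with 13% and 26.9% of all genes. On aspen against cellulose, 4 of 33 were higher and 5 lower, with 15% and 15.9% of all genes. On straw against pine, 6 of 33 were higher and 5 lower, with 31.6% and 8.42% of all genes. On straw against aspen, 4 of 35 were higher and 3 lower, with 20.3% and 9.54% of all genes. On pine against aspen, 4 of 32 were higher and 3 lower, with 7.05% and 27% of all genes. As the authors scaled the values, all tested genes were more often higher than lower on straw and more often lower than higher on pine. The members' counts, of 3 to 6 genes a direction, did not show this tilt, which was not tested.

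**Figure D4:**
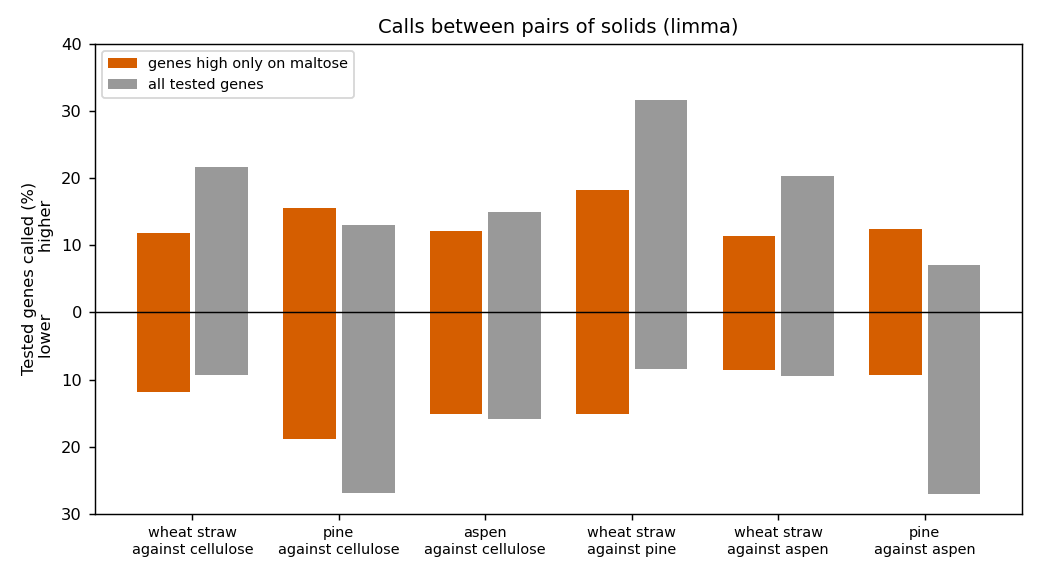
Percentage of tested genes called higher (above the zero line) or lower (below it) on the first solid of each pair, for the members (orange) and for all tested genes (grey). On pine against aspen 4 of 32 members were higher and 3 lower, where 27% of all tested genes were lower.

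These directions depended on how the libraries were scaled. The median level of all listed genes was 8.10 for maltose, 8.86 for cellulose, 9.21 for straw, 8.11 for pine and 8.91 for aspen. The centring of libraries, here and below, did not use these medians. It took medians over the 772 genes recovered in all 14 libraries, which leave out the highest genes. After centring each library on its median, 2 members were higher and 10 lower on straw against cellulose (15.2% and 15.3% of all tested genes), 8 and 5 on pine against cellulose (26.3% and 20.2%) and 4 and 6 on aspen against cellulose (14.7% and 17%). Between the plant materials they were 1 and 18 on straw against pine (20.2% and 32.6%), 2 and 8 on straw against aspen (16% and 17.2%) and 12 and 2 on pine against aspen (18.6% and 15.9%). The members' calls on straw were then mostly lower, and all tested genes were also called lower more often than higher in these 3 straw pairs, by a narrow margin except against pine.

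After quantile normalisation the members' counts were 0 and 11 on straw against cellulose (10.5% and 28.2% of all tested genes), 9 and 4 on pine against cellulose (26.9% and 19.8%) and 2 and 6 on aspen against cellulose (15.4% and 17%). They were 1 and 20 on straw against pine (16.3% and 44.6%), 2 and 11 on straw against aspen (13.2% and 33.5%) and 14 and 2 on pine against aspen (17% and 15.3%). Among all tested genes, lower calls on straw thus outnumbered higher ones under this scaling. As the authors scaled the values, higher calls outnumbered lower ones. The quantile normalisation ran over all recovered values, and straw kept 106 values from level 13 up where the other media kept none. Matching the distributions therefore lowers straw in part through which values were recovered, by an amount that was not measured.

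After centring on the median difference from the gene means, the counts were 2 and 5 on straw against cellulose (19.4% and 11.4%), 5 and 6 on pine against cellulose (17.7% and 24.4%) and 3 and 7 on aspen against cellulose (12.8% and 18.6%). They were 4 and 7 on straw against pine (27.4% and 14.2%), 3 and 3 on straw against aspen (19.7% and 10%) and 7 and 2 on pine against aspen (12.4% and 19.4%). Higher and lower members differed in number by at most 1 in all 6 pairs as the authors scaled the values. Under each of these 3 scalings some pairs differed by more. Under the last, pine against cellulose (5 and 6) and straw against aspen (3 and 3) did not.

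Single genes changed between solids by more than the replicate spread. In the next paragraphs the gene with the largest called difference in each direction is named for each pair, and the next ones were added after their values were seen. Each of the differences named kept its direction under every scaling and with each library left out, and those that lost their call are given with the setting.

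Cellulose stood apart from the plant materials in gene 809348, whose library levels are given above. Its log2 difference from cellulose was -4.66 on straw (SE 0.39, limma adjusted p = 9.74e-08), -3.42 on pine (SE 0.35, limma adjusted p = 5.20e-07) and -4.83 on aspen (SE 0.35, limma adjusted p = 1.80e-08). The straw libraries held 4 and 11 reads. In the opposite direction, gene 806311 was higher on pine than on cellulose by 1.42 (SE 0.17, limma adjusted p = 5.50e-06). Gene 811829 was higher on aspen than on cellulose by 1.67 (SE 0.25, limma adjusted p = 3.35e-05), at 6.83 ± 0.36 against 5.16 ± 0.32 (SD, n = 3 each).

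In gene 803418 aspen was the highest of the 4 solids. It was at 13.42 on maltose (deposited value), and its libraries were at 10.08, 10.33 and 10.62 on aspen, 8.61, 8.74 and 8.55 on cellulose, 8.02 and 7.55 on straw and 6.42, 6.49 and 6.75 on pine. No library of 1 solid overlapped those of another. The difference of pine from aspen was -3.79 (SE 0.16, limma adjusted p = 9.01e-10), a 13.9-fold lower level on the softwood than on the hardwood. That of straw from aspen was -2.56 (SE 0.18, limma adjusted p = 9.17e-08), and aspen was higher than cellulose by 1.71 (SE 0.16, limma adjusted p = 1.10e-06).

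Pine was the solid with the highest level in several other genes. The libraries of gene 6623 were at 11.07, 11.18 and 10.79 on maltose, 8.25, 8.43 and 8.04 on pine, 7.17, 7.15 and 7.20 on aspen, 6.78, 6.77 and 6.62 on cellulose and 5.93 and 5.75 on straw. All 5 media were separate in this gene. Pine was higher than cellulose by 1.51 (SE 0.13, limma adjusted p = 7.17e-08).

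Gene 808314 followed a similar order, with 12.51, 12.97 and 12.40 on maltose, 9.88, 10.09 and 9.72 on pine, 8.78, 9.42 and 9.30 on cellulose, 7.62, 8.44 and 8.42 on aspen and 7.86 and 7.77 on straw. The straw libraries lay within the aspen range. Pine was higher than aspen by 1.74 (SE 0.22, limma adjusted p = 6.90e-06).

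Gene 239031, at 13.93 on maltose and 11.54 on cellulose (deposited values), was at 12.38 ± 0.09 (SD, n = 3) on pine, 11.23 ± 0.23 (SD, n = 3) on aspen and 9.78 ± 0.28 (SD, n = 2) on straw. The difference of straw was -2.60 from pine (SE 0.15, limma adjusted p = 8.28e-08) and -1.45 from aspen (SE 0.15, limma adjusted p = 1.06e-05). Gene 820688 was lower on straw too, with a difference of -2.65 from cellulose (SE 0.14, limma adjusted p = 3.49e-08) and of -2.46 from pine (SE 0.14, limma adjusted p = 5.18e-08). It was at 14.18 on maltose and at 8.89 ± 0.01 (SD, n = 2) on straw. After quantile normalisation the differences of straw were -3.92 from pine and -2.65 from aspen in gene 239031, and -3.72 from pine in gene 820688. They carry the limit of that scaling on straw given above.

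Straw was instead the nearest solid to maltose in gene 820031. Its libraries were at 8.51, 9.37 and 8.30 on maltose, 5.32 and 5.84 on straw, 4.58, 4.05 and 3.91 on cellulose, 3.02, 3.51 and 4.22 on aspen and 2.78, 3.08 and 2.54 on pine. The pine libraries held 4 to 7 reads, so this level is coarse. Straw was higher than pine by 2.78 (SE 0.38, limma adjusted p = 1.40e-05) and higher than aspen by 2.00 (SE 0.38, limma adjusted p = 3.64e-04). After quantile normalisation the difference of straw from pine in this gene was 1.85, still called.

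In gene 274111 the straw libraries, at 7.23 and 7.25, lay above the cellulose libraries, at 5.67, 5.61 and 5.76. The difference was 1.56 (SE 0.29, limma adjusted p = 2.87e-04), and after quantile normalisation it was 0.90 and no longer called. That scaling lowers straw in part through which values were recovered. On maltose this gene was at 8.08, 8.41 and 8.48, and on pine 1 library lay apart at 5.26 from the others at 6.24 and 6.66. Gene 419069 was higher on straw than on aspen by 1.56 (SE 0.22, limma adjusted p = 2.76e-05), and was at 5.44 ± 0.41 (SD, n = 3) on aspen. Gene 813068 was lowest on pine, at 3.23 ± 0.29 (SD, n = 3), where aspen was at 5.26 ± 0.23 (SD, n = 3). The difference of pine from aspen was -2.03 (SE 0.21, limma adjusted p = 6.82e-07).

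**Figure D5:**
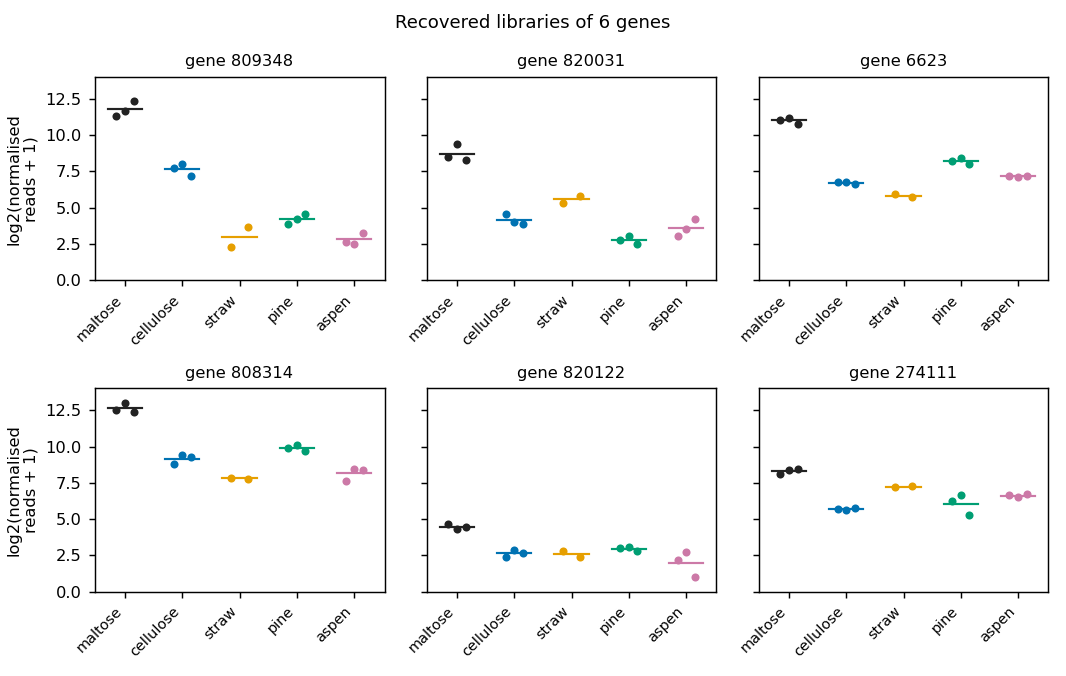
Levels of the recovered libraries (points, log2(normalised reads + 1)) and their mean (lines) for 6 members in the 5 media, those named by rule that were recovered in every library. In gene 809348 cellulose lies between maltose and the other 3 solids, in genes 6623 and 808314 pine is the nearest solid, and in genes 820031 and 274111 straw is.

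The pattern opposite to that of the members, maltose alone below a gap of at least 1, was met by 61 genes, with a median gap of 2.04 and a largest gap of 5.76. For the other media, the genes with 1 medium alone above numbered 53 for straw, 28 for cellulose, 18 for pine and 12 for aspen. Of all 403 genes with a largest gap of at least 1, the members were thus the second largest group with 1 medium alone on top. The number of members depends on scaling: centring each medium on its median gave 75 genes, quantile normalisation 65 and centring on the median difference from the gene means 51. Of the 37 members, 34, 36 and 37 were among these.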

How the data were processed

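The authors deposited 1 table of 949 genes with 5 columns of normalised log2 read counts, 1 per medium, per the file headers. TopHat2, HTSeq and DESeq 1.5 are listed, with no role, per the submitters' processing notes. Not given in the sources used here were the genome build, the annotation, the strand setting, the choice of genes and the way libraries were combined, so overlapping or near-identical genes could not be examined. No reference or gene names were used.

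The members and the tests were chosen with earlier results of these data known. Whole reads were recovered by searching for library factors and whole numbers under which a deposited value is the mean over libraries of log2(reads x factor + 1), within 4e-14 below level 10 and 2e-13 from there on the natural log scale. The 20 lowest values of a medium were tried first: all 20 fitted 3 libraries for each medium except straw, where all 20 fitted 2. Exactly 1 set of reads was found for 4335 of 4745 values. Below level 9 this held for 2564 of 2564, with 0 of as many decoys, shifted by 1e-06, giving a set. From 9 to 13 it held for 1665 of 1741, while 58 decoys met a set by accident, so some sets in this band may be wrong. With 3 libraries, values from 13 were not searched. In simulated tables of 300 values, 298 gave 1 set with 3 libraries and 300 with 2, and all of these were the true reads. Simulated levels stopped short of 13, so the highest values searched were not checked in this way. One read was worth 0.878 to 1.20 normalised counts. No replicate library was a duplicate. Chi-square over degrees of freedom was 95.6 between the straw libraries and 3.78 to 26.6 between replicates of the other media. The straw value includes genes from level 13 up, which were recovered for straw alone, so it is not measured on the same genes.

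The fit used limma 3.58.1 (R 4.3.3) over all 14 libraries with a mean per medium and an intensity trend, no covariates and no filter, and p-values were adjusted by Benjamini-Hochberg over the genes tested in a pair. Each SE pools the spread over the media, so straw values rest mostly on the others. On reads drawn for 772 genes, of which 200 were changed by 1.5, it called 199 for pine against aspen and 195 for straw against cellulose, and 1 and 2 of the 572 unchanged. All genes were drawn with the same dispersion, whereas the SD between real libraries of a member reached 0.95. The simulation thus does not measure recovery at such spreads. Named genes were those with the 2 largest gaps, next to the threshold, with the highest and lowest maltose level, and with the largest called difference in each direction per pair. Alternatives were other scalings, a pseudocount of 5 in place of 1, a level filter of 5, a gap of 2, counting by size and leaving out each library.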

Additional observations from a re-analysis of the deposited data

How the results depend on the processing

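The number of members was 14 with a gap of at least 2 (median gap 2.93), 75 with media centred on their median and 65 after quantile normalisation. With each library left out in turn it was 34 to 44, and the median gap 1.54 to 1.68. Members without library values in a medium could not change when a library of that medium was left out. A pseudocount of 5 and a level filter each left 36. Members called numbered 14 in place of 7 on pine against aspen (34.5% in place of 34% of all tested genes) and 19 in place of 11 on straw against pine (52.9% in place of 40%) after median centring. After quantile normalisation they were 16 (32.3% of all) and 21 (60.8%) there, and 13 in place of 7 on straw against aspen (46.6% in place of 29.8%). The straw counts carry the limit given above for this scaling. Leaving out a straw library leaves a single library in that medium, so calls from those fits are not counted here. The ranges that follow therefore do not show how far the straw libraries move the counts. With each library other than straw left out, members called numbered 8 to 9 on straw against cellulose and 11 to 12 on pine against cellulose. They were 7 to 11 on aspen against cellulose and 10 to 11 on straw against pine. On straw against aspen they were 6 to 8, and on pine against aspen 6 to 10. With all libraries, 30.9%, 39.9%, 30.9%, 40%, 29.8% and 34% of all tested genes were called, in the same order. Shares of all tested genes with a library left out are not given here, so the ranges describe the members alone. No named gene changed direction in any of these fits. The cause of these shifts was not tested. No paired analysis was possible because the recovered libraries carry no replicate numbers. Members with few reads, such as those with 4 to 19 reads per library on a solid, limit the precision of their levels.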
